A study of Arabidopsis thaliana with 12 samples.

Results

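Small RNA was sequenced from inflorescences of Arabidopsis thaliana, and 6 genes are described here whose small RNA was near absent or low in the wild type and higher in mutants. They are AGL23 (AT1G65360), AT3G09960, AT5G34882, AT5G44770, AT1G28000 and AT1G28005. They were chosen by measured values, the differences of each mutant from the wild type, and those differences are given as a description with no test. The deposited table lists 152484 bins of 100 bp, of which 23 carry 1 of these genes in their annotation. These bins belong to 5 genes, of 9508 genes with a listed bin. No listed bin carries AT1G28005 by name.

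The 12 libraries form 4 groups of 3 biological replicates, all in the Col-0 ecotype: the wild type Col-0 and the mutants heso1-1, urt1-1 and ntp4-1. No treatment was given in any group, and plants of every group grew at 22 °C under a photoperiod of 16 h light and 8 h dark. The sources used here do not say what each allele changes in its gene or how many plants made up a sample. An inflorescence holds many cell types, so fewer cells of a type and less RNA per cell cannot be told apart.

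Plant small RNAs are cut from double-stranded RNA by Dicer-like proteins and loaded into Argonaute proteins. They include miRNAs from hairpin precursors and siRNAs from transposons, repeats and some genes. The methyltransferase HEN1 protects their 3′ ends, and HESO1 and URT1 are uridylyltransferases that add U to ends left without that methyl group. NTP4 belongs to the same family of nucleotidyl transferases. Coding genes in Arabidopsis usually give few siRNAs.

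The sequences below are the leading bin of each gene, the one with the highest mean over the 12 libraries, and the second bin of AT1G28000. They are shown because their letters bear on whether a read matches 1 place or several. They were read from RefSeq's TAIR10.1 genome, 5′ to 3′ on the strand of the gene, and capitals mark bases that lie in a 24-base stretch found elsewhere in the genome. For AT3G09960 the 55 coding bases of its lower bin, which held the smaller share, are shown in place of the leading bin, because most of its leading bin is 3′ untranslated region.
AGL23, chr1:24281401-24281500, plus strand: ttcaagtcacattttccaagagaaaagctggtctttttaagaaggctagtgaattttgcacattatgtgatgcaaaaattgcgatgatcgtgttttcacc
AT3G09960, chr3:3063401-3063455, plus strand: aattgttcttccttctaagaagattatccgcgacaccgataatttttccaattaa
AT5G34882, chr5:13196001-13196100, plus strand: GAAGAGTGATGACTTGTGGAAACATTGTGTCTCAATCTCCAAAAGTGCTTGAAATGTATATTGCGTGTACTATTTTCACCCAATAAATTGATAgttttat
AT5G44770, chr5:18065501-18065600, plus strand: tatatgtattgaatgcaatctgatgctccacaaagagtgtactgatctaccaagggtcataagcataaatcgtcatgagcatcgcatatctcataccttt
AT1G28000, chr1:9756801-9756900, minus strand: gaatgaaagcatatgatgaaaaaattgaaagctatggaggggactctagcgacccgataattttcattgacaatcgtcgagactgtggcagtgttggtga
AT1G28000, chr1:9757001-9757100, minus strand: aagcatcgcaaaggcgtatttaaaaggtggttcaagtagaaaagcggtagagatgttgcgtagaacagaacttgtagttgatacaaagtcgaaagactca

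A single bin of AT5G34882 carries capitals, over 93 of its 100 bases. The bins shown for the other genes have none, so every 24-base stretch of them occurs in 1 place in the genome. Exact matches of shorter stretches were not counted.

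Values are RPM as deposited, read counts relative to the depth of the library. In 11 libraries they resolve into whole reads, with implied totals of 2761330 to 11191516 reads, and 1 read was worth 0.0894 to 0.362 RPM. The listed bins held 28.7% to 67.5% of these totals. The 28.7% is ntp4-1 replicate 1, which stands apart: it had 81663 bins above 0, where the other libraries had 97860 to 143493, and a TMM scale of 0.388, where the others had 0.700 to 1.48. A count of 0 allows up to 0.270 RPM in Col-0 replicate 1 and 0.412 RPM in Col-0 replicate 2, counting error only and taking 3 reads as the limit. The libraries were split into 2 sets by their correlation over bins, a number fixed beforehand. Col-0 1, heso1-1 1, urt1-1 1 and 3 and ntp4-1 1 form set A, and the other 7 form set B. Correlations ran from 0.799 to 0.956 within sets and from 0.565 to 0.895 between them, so the ranges overlap. The labels give no batch that matches these sets, and both hold all 4 genotypes. HESO1 and URT1 have 0 listed bins in their gene bodies, so small RNA gives no check of the heso1-1 and urt1-1 labels. The locus of NTP4 was not looked up, and the ntp4-1 label was not checked. Marker levels varied widely within groups. The 5 MIR172 loci, which act in flowers, summed to 37.2 to 322 RPM in Col-0, 73.3 to 3664 in heso1-1, 28.8 to 637 in urt1-1 and 9.48 to 478 in ntp4-1. MIR172A and MIR172E were listed at 0 in a ntp4-1 library and MIR172B in a urt1-1 library. The pollen locus MIR845A lay at 1026 to 2306 RPM in Col-0, 73.9 to 1813 in heso1-1, 163 to 1478 in urt1-1 and 137 to 611 in ntp4-1, and MIR845B ranged from 45.3 to 612 RPM over all libraries. MIR2939 had no value under its gene name. Chloroplast bins summed to 25493 to 65588 RPM. The part of these levels in the results was not tested.

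AGL23 is a type I MADS-box gene that acts in female gametophyte development. It lies at chr1:24281337-24282233 on the plus strand, and 2 of the 10 bins it could fill are listed. Summed over those bins, it stood at 0, 0.137 and 1.01 RPM in Col-0 replicates 1 to 3. It stood at 38.3, 45.1 and 26.4 RPM in heso1-1, at 60.6, 35.4 and 36.3 RPM in urt1-1, and at 12.5, 16.6 and 24.5 RPM in ntp4-1. All 9 mutant libraries lay above all 3 Col-0 libraries, and every ntp4-1 library lay below every heso1-1 and urt1-1 library. In reads, Col-0 replicates 1 and 2 had 0 and 1, heso1-1 had 344, 505 and 73, urt1-1 had 470, 131 and 280, and ntp4-1 had 95, 82 and 134. Means ran from 0.381 ± 0.545 RPM in Col-0 to 17.9 ± 6.09 in ntp4-1, 36.6 ± 9.46 in heso1-1 and 44.1 ± 14.3 in urt1-1 (SD, n = 3). Neighbours in that order overlapped only for heso1-1 and urt1-1.

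Nearly all of the AGL23 signal was in 1 bin. The bin at 24281401 to 24281500 lies wholly in the coding sequence of exon 1 and overlaps the annotated transposable element AT1TE79835, and it held 97.7% of the locus over the 12 libraries. The other bin, upstream of it, overlaps AT1TE79830 too and averaged 0.577 RPM. Among all loci with 2 listed bins and an average of 1 RPM or more, 592 in number with AGL23 included, the leading bin held a median of 81.9%. The leading bin had 12 similar places in the genome by sequence alignment, the closest by identity at 85.2%. They include AGL28, at 83.0% over 100 bases, and AGL62, at 78.0% over 100 bases, both MADS-box relatives, yet all 77 of its 24-base words occur in 1 place.

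AT3G09960 encodes a member of the calcineurin-like metallo-phosphoesterase family. It lies at chr3:3061945-3063594 on the plus strand, and 2 of 17 possible bins are listed, at the 3′ end of the gene. The locus stood at 0, 0.137 and 0.603 RPM in Col-0, and at 16.7, 38.8 and 21.4 RPM in heso1-1. It stood at 21.2, 60.9 and 16.1 RPM in urt1-1 and at 2.63, 27.4 and 29.6 RPM in ntp4-1. All 9 mutant libraries again lay above Col-0, and the 3 mutants overlapped each other. The low ntp4-1 value is replicate 1, with 20 reads against 135 and 162 in the others. Means were 0.247 ± 0.316 RPM in Col-0, 19.9 ± 14.97 in ntp4-1, 25.6 ± 11.6 in heso1-1 and 32.7 ± 24.5 in urt1-1 (SD, n = 3).

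No transposable element is annotated in either bin of AT3G09960. The leading bin, at 3063501 to 3063600, has 94 bases of the gene's 3′ untranslated region, is annotated as the promoter of the next gene, AT3G09970, and held 87.5% of the locus. The other bin, at 3063401 to 3063500, has 55 coding and 45 untranslated bases and was at 0 in all 3 Col-0 libraries. In that bin heso1-1 averaged 4.94 RPM, urt1-1 3.55 and ntp4-1 1.31. Both bins are 28.0% GC, where gene bins averaging 1 RPM or more had a median of 41.0%, and all 77 words of each occur in 1 place.

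AT5G34882 encodes a short protein of the ECA1 gametogenesis related family. It lies at chr5:13195705-13196052 on the plus strand, and all 4 bins it could fill are listed. The locus stood at 0, 0 and 0.503 RPM in Col-0, at 9.47, 7.06 and 2.90 RPM in heso1-1, at 28.2, 10.01 and 19.3 RPM in urt1-1 and at 0, 4.46 and 2.19 RPM in ntp4-1. Every urt1-1 library lay above every heso1-1 library, and ntp4-1 overlapped Col-0 because its replicate 1 had 0 reads. The other ntp4-1 libraries had 22 and 12 reads. Means were 0.168 ± 0.290 RPM in Col-0, 2.22 ± 2.23 in ntp4-1, 6.48 ± 3.33 in heso1-1 and 19.2 ± 9.12 in urt1-1 (SD, n = 3), and neighbours in that order overlapped except heso1-1 and urt1-1.

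AT5G44770 encodes a Cys/His-rich C1 domain family protein. It lies at chr5:18065012-18066696 on the plus strand, and 8 of 17 possible bins are listed, in an unbroken run from 18065101 to 18065900 with no annotated transposable element. The locus stood at 0.0899, 0.274 and 0.201 RPM in Col-0, at 6.46, 4.74 and 24.3 RPM in heso1-1, at 24.2, 38.7 and 18.7 RPM in urt1-1 and at 0.132, 5.88 and 0.183 RPM in ntp4-1. The heso1-1 and urt1-1 libraries lay above all Col-0 libraries, while ntp4-1 replicates 1 and 3 lay within the Col-0 range with 1 read each. Replicate 2 of ntp4-1 had 29 reads. Means were 0.188 ± 0.0929 RPM in Col-0, 2.06 ± 3.30 in ntp4-1, 11.8 ± 10.8 in heso1-1 and 27.2 ± 10.3 in urt1-1 (SD, n = 3), and all neighbours in that order overlapped.

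The small RNA of AT5G44770 was spread over its run of bins. The leading bin, at 18065501 to 18065600, held 35.0% of the locus. The median was 29.3% over 298 loci with 8 listed bins and an average of 1 RPM or more, AT5G44770 included. In urt1-1 the 8 bins averaged from 0.930 to 9.08 RPM, and in Col-0 4 of them were at 0 in every library. All 77 words of the leading bin occur in 1 place, and the next bins downstream have 90.9% and 88.3% of their words in 1 place. Similar places number 13, among them AT5G54030, AT5G54040 and AT5G54050 at 86.1% identity over 101 bases.

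AT1G28000, annotated in the pentatricopeptide repeat superfamily, whose members bind organellar RNA, was the member with the most small RNA in the wild type. It lies at chr1:9756674-9757963 on the minus strand, with 7 of 14 possible bins listed. The locus stood at 4.77, 3.71 and 5.03 RPM in Col-0, at 17.8, 26.4 and 43.8 RPM in heso1-1, at 33.4, 29.8 and 21.5 RPM in urt1-1 and at 10.5, 19.9 and 23.2 RPM in ntp4-1. All 9 mutant libraries lay above Col-0, and the 3 mutants overlapped each other. Means were 4.50 ± 0.699 RPM in Col-0, 17.9 ± 6.57 in ntp4-1, 28.2 ± 6.08 in urt1-1 and 29.4 ± 13.2 in heso1-1 (SD, n = 3). AT1G28005, uncharacterized, lies at chr1:9756927-9757891 on the plus strand, opposite AT1G28000. It overlaps 4 of the AT1G28000 bins, 3 of them in its coding bases. Since the bins carry no strand, the reads of the 2 genes cannot be told apart in those 4. The leading bin of AT1G28000, at 9756801 to 9756900, lies outside AT1G28005.

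Along AT1G28000 the signal had 2 high bins. The bin at 9756801 to 9756900 overlaps the transposable element AT1TE31410 and averaged 2.67 RPM in Col-0, 16.2 in heso1-1, 12.9 in urt1-1 and 5.51 in ntp4-1. The bin at 9757001 to 9757100 has no transposable element and averaged 1.29 RPM in Col-0, 6.32 in heso1-1, 10.7 in urt1-1 and 6.99 in ntp4-1. By these means the bin at the transposable element was the higher in Col-0, heso1-1 and urt1-1, and the other bin was the higher in ntp4-1. In ntp4-1 replicate 1 they stood at 2.77 and 6.98 RPM, in replicate 2 at 6.28 and 6.69, and in replicate 3 at 7.50 and 7.31, so that order rests mainly on replicate 1. The share of the former in the locus was 59.4% in Col-0, 55.2% in heso1-1, 45.7% in urt1-1 and 30.9% in ntp4-1. The difference between these shares was not tested. No similar place was found for the leading bin.

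**Figure D1:**
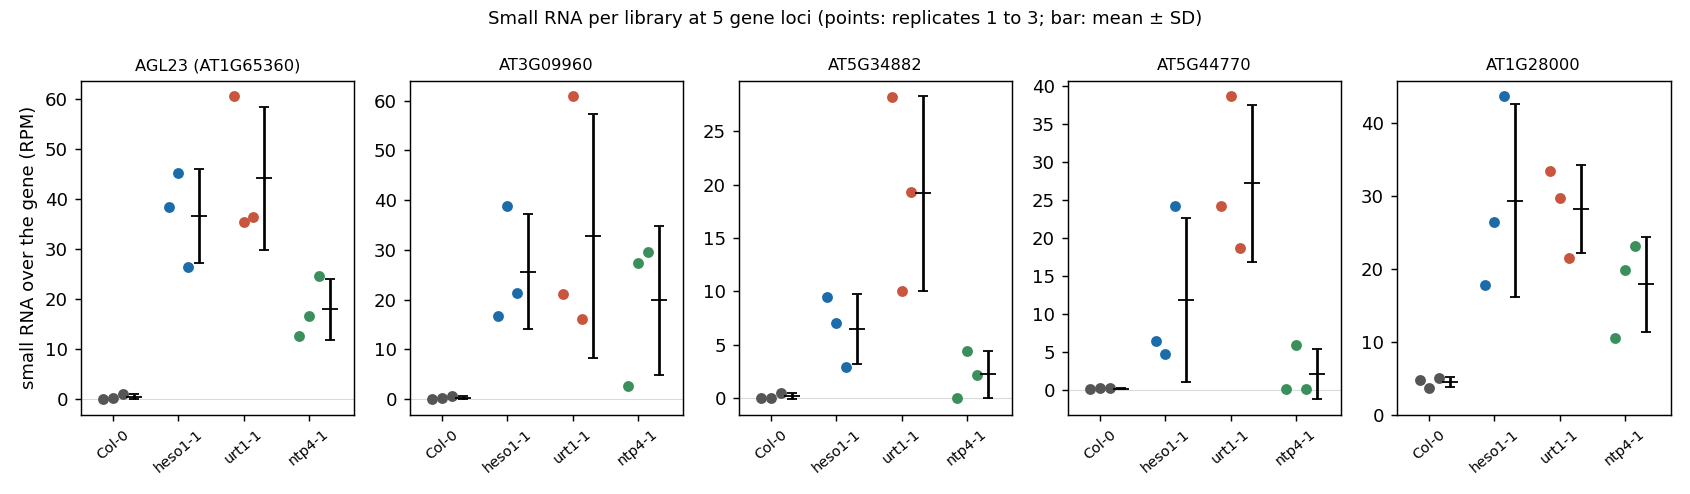
Small RNA of each gene in each library, as RPM summed over its listed bins, with 1 panel per gene, points for the 3 replicates of each genotype, and the mean with its SD. Col-0 lies at or near 0 for 4 of the 5 genes and near 4.50 RPM for AT1G28000, and the ntp4-1 points of AT5G34882 and AT5G44770 reach down to the Col-0 level.

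Set side by side, all 5 genes with bins lay above Col-0 in every heso1-1 library and in every urt1-1 library, where 2.41% and 4.33% of all tested loci did so. In ntp4-1 the same held for 3 of 5 (AGL23, AT3G09960 and AT1G28000), beside 1.78% of all tested loci, and for 4 of 5 without ntp4-1 replicate 1. Over all 9 mutant libraries together, 3 members and 0.581% of loci lay above every Col-0 library. These contrasts chose the members, so nothing is read from the counts. Differences from Col-0 are given as log2(RPM + 0.5), which understates the change of loci near 0. On that scale AGL23 differed by 5.53 (SE 0.45) in heso1-1, 5.79 (SE 0.45) in urt1-1 and 4.50 (SE 0.51) in ntp4-1. AT3G09960 differed by 5.12 (SE 0.44), 5.31 (SE 0.54) and 4.29 (SE 0.87) in the same order. AT5G34882 differed by 3.33, 4.85 and 1.58, AT5G44770 by 3.82, 5.28 and 1.03, and AT1G28000 by 2.49, 2.51 and 1.81. These values depend on the constant added: over the alternatives tried, AGL23 in heso1-1 ranged from 4.80 to 6.92 and AT5G34882 in heso1-1 from 2.59 to 5.02. The median of all tested loci moved the other way, by -0.33 in heso1-1, -0.43 in urt1-1 and -0.82 in ntp4-1, and by -0.25, -0.15 and -0.29 after TMM scaling. Relative to the median, AT5G44770 in ntp4-1 stood at 1.86 and AGL23 at 5.32. The 3 comparisons share the Col-0 libraries.

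Within the 2 library sets the order of the groups held for AGL23, with means of 0, 38.3, 48.5 and 12.5 RPM in Col-0, heso1-1, urt1-1 and ntp4-1 in set A and 0.571, 35.8, 35.4 and 20.6 in set B, except that heso1-1 and urt1-1 changed places. AT3G09960 in ntp4-1 was at 2.63 RPM in set A and 28.5 in set B. AT5G44770 was at 0.132 RPM in ntp4-1 and 21.5 in urt1-1 in set A, and at 3.03 and 38.7 in set B. Each set holds 1 or 2 libraries of a genotype, and the differences within a set are given with the comparisons between mutants.

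Bin by bin, 7 of the 23 bins were at 0 in all Col-0 libraries, and 42 of the 69 Col-0 values were 0. In heso1-1 6 of 69 values were 0, in urt1-1 1 and in ntp4-1 25. Of the 23 bins, 18 lay above Col-0 in every heso1-1 library, 20 in every urt1-1 library and 7 in every ntp4-1 library. Among all tested bins these shares were 1.3%, 1.15% and 0.572%, and nothing is read from the counts, as above. An average of 1 RPM or more over the 12 libraries was reached by 12 of the 23. A transposable element is named in 9 of the 23, in AGL23, AT5G34882 and AT1G28000, beside 67.7% of all listed gene bins. Around the leading bins the picture differed by gene. The bins counted lie within 2 kb of the leading bin on either side, leaving out the bins of the gene itself. In that window no bin is listed near AGL23 or AT3G09960. Near AT5G44770, 5 bins summed to 83.0 ± 13.02 RPM in Col-0, 49.1 ± 15.8 in heso1-1, 39.4 ± 5.80 in urt1-1 and 28.7 ± 5.53 in ntp4-1. Near AT1G28000, 18 bins summed to 213 ± 58.7, 154 ± 64.1, 115 ± 43.4 and 87.8 ± 56.0 RPM in the same order. Near AT5G34882, 9 bins summed to 8.07 ± 2.42 RPM in Col-0, 3.87 ± 2.15 in heso1-1, 6.58 ± 3.47 in urt1-1 and 7.51 ± 6.34 in ntp4-1 (SD, n = 3). All sums of a mutant lay below every Col-0 sum near AT5G44770 in each mutant, near AT1G28000 in ntp4-1 and near AT5G34882 in heso1-1. The other groups overlapped Col-0, and how often sums elsewhere lie below Col-0 was not counted. No flanking bin lay above Col-0 in all mutant libraries, while 1 near AT5G44770 and 2 near AT1G28000 lay below it in all of them. The share of all bins below Col-0 in this way was not counted, and nothing is read from these counts. Of all tested bins, 31.7%, 17.9% and 11.4% had a difference from Col-0 above 0 in heso1-1, urt1-1 and ntp4-1.

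**Figure D2:**
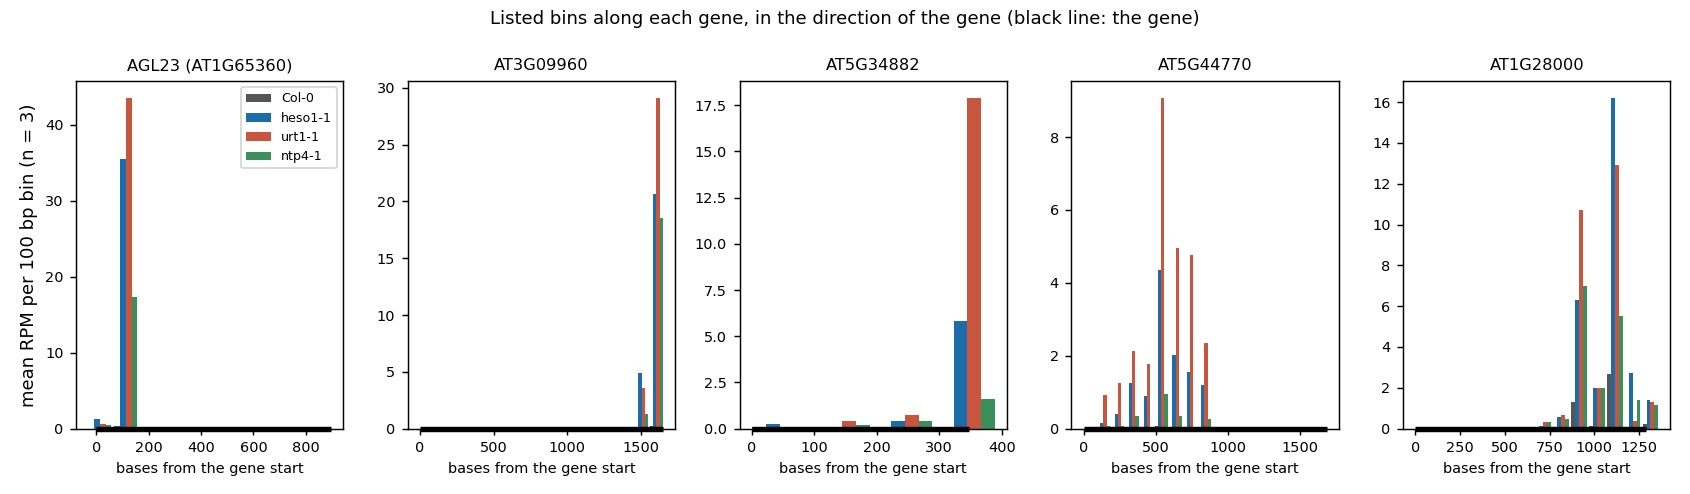
Mean RPM of each genotype in every listed bin along the 5 genes, plotted against distance from the start of the gene. AGL23, AT3G09960 and AT5G34882 have a single high bin, AT1G28000 has 2 and AT5G44770 a run of 8.

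The leading bin of AT5G34882 is part of a repeated sequence. It covers 52 coding bases and 48 bases past the annotated end of the gene, and overlaps AT5TE46935 and AT5TE46940. Only 7 of its 77 words, 9.09%, occur in 1 place, with a median of 6 places. Gene bins averaging 1 RPM or more, 11647 in number, had a median of 84.4% of words in 1 place, and 8.30% of those bins had no such word. The sources used here do not say how reads with several matching places were assigned. The bin was at 0 in all 3 Col-0 libraries and in ntp4-1 replicate 1. It stood at 8.80, 6.08 and 2.54 RPM in heso1-1, at 27.3, 7.85 and 18.5 RPM in urt1-1, and at 3.24 and 1.65 RPM in ntp4-1 replicates 2 and 3. Outside the gene 16 listed bins share a word with it, 12 on chromosome 5 and 4 on chromosome 3.

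The summed level of the leading bin and these 16 bins had its highest mean in Col-0, where the leading bin itself was listed at 0. The sum was 251, 190 and 157 RPM in Col-0, 148, 101 and 83.7 in heso1-1, 180, 106 and 158 in urt1-1 and 127, 61.2 and 72.9 in ntp4-1. Every heso1-1 and ntp4-1 library lay below every Col-0 library, and urt1-1 overlapped Col-0. That separation rested on the highest of the 16, a bin of AT5G42567, and without it both mutants overlapped Col-0. That bin had 94.5, 65.7 and 65.4 RPM in Col-0, 27.2, 22.4 and 17.7 in heso1-1 and 22.0, 17.8 and 23.9 in ntp4-1. The median log2 difference of all tested bins from Col-0 was -0.23 in heso1-1 and -0.75 in ntp4-1. How often such sums lie below Col-0 was not counted, so nothing is read from that order. The leading bin made up 0% of the sum in Col-0, 5.01% ± 1.71 in heso1-1, 11.5% ± 3.90 in urt1-1 and 2.52% ± 2.66 in ntp4-1 (SD, n = 3). The highest of the 16 are a bin of AT5G42567, with a mean of 37.9 RPM over the 12 libraries, and a bin of AT5G34905, with 21.8 RPM. They share 30 and 28 words with the leading bin, where the 16 bins share from 2 to 69. The bin that shares 69, in AT5G34883, averaged 1.13 RPM. Whole bins are summed, so the sum is not the level of the shared sequence alone. Among the 12 that averaged 1 RPM or more, 5 were at 0 in some library and above 5 RPM in another. These sums were formed after the shared words were seen and carry no test.

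**Figure D3:**
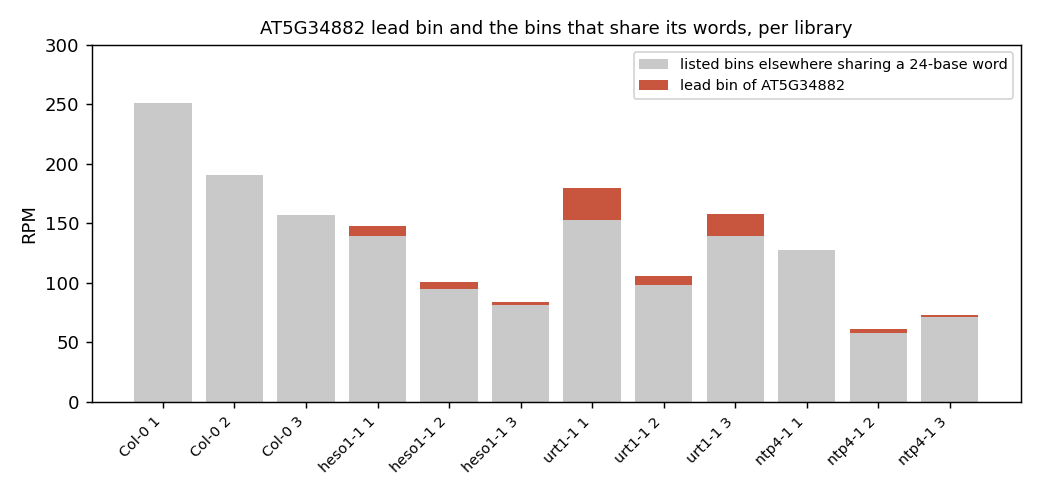
The leading bin of AT5G34882 and the listed bins that share a 24-base word with it, in RPM for each of the 12 libraries. The bin itself is at 0 in Col-0 and ntp4-1 replicate 1, while the sum with the other bins is 251 RPM in Col-0 replicate 1 and 127 RPM in ntp4-1 replicate 1.

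The mutants were then compared with each other, a contrast that did not choose the genes, with limma on log2(RPM + 0.5), two-sided, with Benjamini-Hochberg adjustment over all loci. The largest differences were those of ntp4-1 from urt1-1. AT5G44770 stood at -4.24 (SE 0.86, 95% interval -6.22 to -2.26), with an adjusted p of 0.176 and an unadjusted p of 0.00106. AT5G34882 stood at -3.27 (SE 0.83, -5.16 to -1.38), with an adjusted p of 0.324 and an unadjusted p of 0.00393. AGL23 stood at -1.29 (SE 0.44, -2.28 to -0.29; adjusted p = 0.579). For these 3 genes every ntp4-1 library lay below every urt1-1 library, as it did for 14.2% of tested loci. AT3G09960 stood at -1.02 (-3.12 to 1.08) and AT1G28000 at -0.69 (-1.71 to 0.32), with groups that overlapped. AT3G09960 turned to 0.047 without ntp4-1 replicate 1. The median of all tested loci was -0.37, and -0.13 after TMM scaling. Relative to that median the 5 genes stood at -3.87, -2.90, -0.91, -0.65 and -0.32 in the order given.

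By limma 0 of the 5 genes passed an adjusted p of 0.05 in that comparison, beside 0.172% of 5821 loci. An unadjusted limma p under 0.05 was reached by 3 of 5, beside 406 of 5821 loci. On the recovered reads edgeR and DESeq2 also called 0 of the 5. The DESeq2 adjusted p was 0.0505 for AT5G44770 and 0.0529 for AT5G34882, where DESeq2 called 73 loci, and the edgeR adjusted p was 0.383 and 0.404. Of 20 alternatives, 6 called AT5G44770 and 2 each called AT5G34882 and AT3G09960, among them the following and fits with 1 library in a group. AT5G44770 passed in the fit over all 4 groups (adjusted p = 0.0355), with the library set as a term (adjusted p = 0.00736) and without ntp4-1 replicate 2 (adjusted p = 0.0472), the only ntp4-1 library with more than 1 read there. The library set as a term also gave an adjusted p of 0.034 for AT5G34882 and of 0.0368 for AT3G09960. That fit called 113 loci, 108 of them lower. Within set A, ntp4-1 replicate 1 alone, the library that stands apart, meets 2 urt1-1 libraries. AT5G34882 stood at -5.58 there, AT5G44770 at -5.11, AT3G09960 at -2.60, AGL23 at -1.87 and AT1G28000 at -1.31. Within set B, with 2 ntp4-1 libraries against 1 of urt1-1, AT5G44770 stood at -4.23 and AT5G34882 at -1.52. Both fits have a group with 1 library, which is assumed to vary like the other, so the differences alone are given. The fits that use the sets were added after the sets were seen. Over the 20 alternatives the adjusted p reached 0.71 for AT5G44770, 0.978 for AT5G34882, 0.99995 for AT3G09960 and 0.981 for AGL23.

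Between ntp4-1 and heso1-1 no gene passed by limma, edgeR or DESeq2, or within set B, and 2 of 5 had an unadjusted limma p under 0.05. All 5 differences were below 0, where 18.4% of all tested loci had a difference above 0, so nothing is read from that shared sign. AT3G09960 turned to 0.24 without ntp4-1 replicate 1. AT5G44770 stood at -2.79 (95% interval -4.93 to -0.65), AT5G34882 at -1.75 (-3.63 to 0.12) and AGL23 at -1.03 (-2.06 to -0.0042). AT3G09960 stood at -0.83 (-2.74 to 1.08) and AT1G28000 at -0.68 (-1.84 to 0.48). The median locus was at -0.46, and -0.01 after TMM scaling. AGL23 was the 1 gene whose groups did not overlap, beside 13.8% of tested loci, and the adjusted p of all 5 was 0.722 or 0.728. Of 5829 loci 0% passed, with 341 at an unadjusted p under 0.05.

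Between urt1-1 and heso1-1 the 5 genes differed least. AT5G34882 stood 1.52 higher in urt1-1 (95% interval 0.38 to 2.65) without overlap, beside 3.07% of tested loci, and AT5G44770 stood 1.45 higher (0.17 to 2.74). AGL23 stood at 0.25 (-0.55 to 1.05), AT3G09960 at 0.19 (-0.99 to 1.37) and AT1G28000 at 0.015 (-0.86 to 0.89). AT3G09960 and AT1G28000 changed sign there with single libraries left out, reaching -0.37 without urt1-1 replicate 2 and -0.29 without heso1-1 replicate 1, and AT1G28000 stood at -0.19 within set B. The adjusted p was 0.999 for all 5 by limma, edgeR and DESeq2 called 0 members, and 2 had an unadjusted limma p under 0.05. Over all 6001 loci 0% passed, with 219 at an unadjusted p under 0.05. The median locus was at -0.10, and at 0.11 after TMM scaling. The leading bins tested alone, with 5 of 5 in each fit, gave 0 calls in all 3 comparisons, beside 0.0466% of bins for ntp4-1 minus heso1-1, 0.0717% for ntp4-1 minus urt1-1 and 0.00512% for urt1-1 minus heso1-1. Of these 5 bins, 3, 3 and 1 had an unadjusted limma p under 0.05, beside 1522 of 36445, 1375 of 34861 and 833 of 39043 bins. For the 5 bins edgeR and DESeq2 called 0. With the library set as a term the leading bins passed for ntp4-1 minus urt1-1 in AT5G44770 (adjusted p = 0.00173), AT5G34882 (0.00898) and AT3G09960 (0.0346). That fit called 1047 bins, 988 of them lower. Intervals that span 0 do not show that the mutants are alike.

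**Figure D4:**
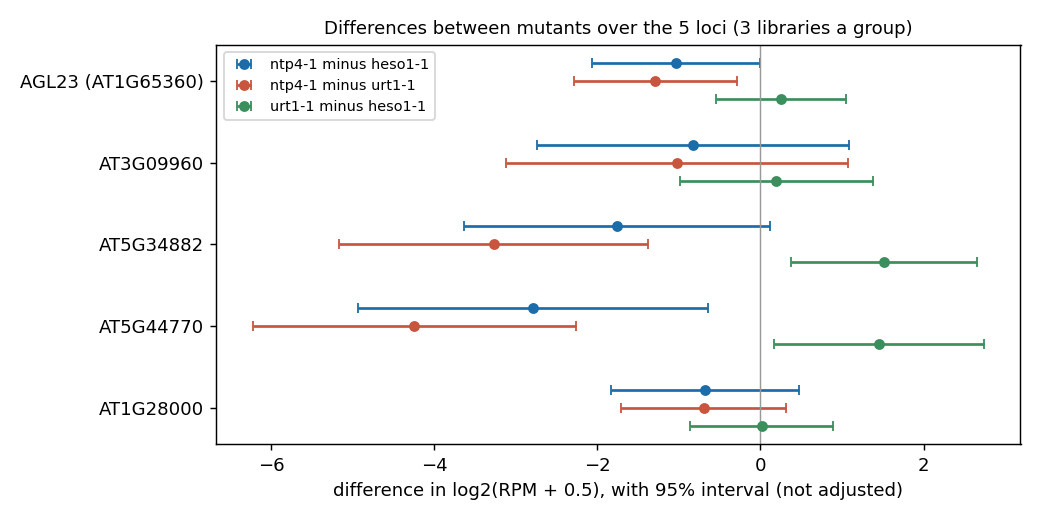
Differences between mutants for each gene on the log2(RPM + 0.5) scale, with unadjusted 95% intervals from limma, in 3 comparisons. All 5 points lie below 0 for ntp4-1 against either other mutant, lowest for AT5G44770 at -4.24 against urt1-1, and none passed an adjusted p of 0.05. Of all tested loci, 18.4% lie above 0 for ntp4-1 against heso1-1 and 22.4% for ntp4-1 against urt1-1.

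The loci whose pattern over the 12 libraries was most like each gene were found by the root mean square difference of log2(RPM + 0.5), centred on each locus, among 6021 loci other than the members. For AGL23 they were BGAL1, a beta-galactosidase gene, at 1.58 and AT3G43970 at 1.63. For AT3G09960 they were AT3G43970 at 1.44 and AT5G16410 at 1.56, and for AT5G34882 the endoglucanase gene GH9B1 at 1.19 and AT5G16410 at 1.28. For AT5G44770 they were EBF1, which encodes an F-box protein of ethylene signalling, at 1.00 and AT4G03824 at 1.01. AT4G03824 is a pseudogene in TAIR10.1 and is labelled as a transposable element gene in the deposited annotation. EBF1 averaged 1.08 ± 0.238 RPM in Col-0, 15.1 ± 16.8 in heso1-1, 35.8 ± 7.98 in urt1-1 and 1.14 ± 0.157 in ntp4-1 (SD, n = 3). For AT1G28000 they were BGAL1 at 0.47 and AT3G15450 at 0.48. Among themselves the members lay from 0.84, between AGL23 and AT3G09960, to 1.74, between AGL23 and AT5G44770. The libraries and their depths are shared by all these loci.

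Of 17 M-alpha MADS-box genes, the group AGL23 belongs to, 4 have listed bins. They are AGL28, AGL62, AT4G36590 and AT3G66656, and 3 were tested in each comparison with Col-0. By limma 0 were called higher or lower in any mutant, with 1, 2 and 0 at an unadjusted p under 0.05 in heso1-1, urt1-1 and ntp4-1. All tested loci gave calls in 0.0651%, 0.473% and 0.0336%. The median difference of the 3 was -0.01, 0.83 and 0.15, beside medians of -0.33, -0.43 and -0.82 for all loci. AGL28 averaged 0.414 RPM in Col-0, 2.07 in heso1-1, 2.57 in urt1-1 and 1.87 in ntp4-1. Of 17 RNA silencing genes, DCL1, DCL4, AGO1 and AGO2 have listed bins, and 0 of the 4 were called in any mutant against Col-0 by limma, with 0 at an unadjusted p under 0.05. Their median differences were 0.06, 0.07 and -0.38. AGO2, an Argonaute gene whose own transcript is a miRNA target, averaged 12.3 RPM in Col-0, 19.3 in heso1-1, 14.6 in urt1-1 and 39.0 in ntp4-1. In the same order AGO1 averaged 6.39, 6.52, 8.06 and 3.88 RPM, DCL1 4.94, 3.37, 4.01 and 3.26, and DCL4 2.67, 2.86, 2.64 and 2.86. With the replicate number as a block, both lists kept 0 calls against Col-0, while the loci called among all tested numbered 3 in heso1-1, 22 in urt1-1 and 1339 in ntp4-1, against 4, 29 and 2 without it.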

How the data were processed

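The authors deposited RPM (read counts scaled to library depth) for 12 libraries in bins of 100 bp, with genes, promoters and transposable elements named per bin. 0 columns lacked a sample. The sources used here name no aligner, genome build or rule for reads with several matches. The deposited values were whole read counts in 11 libraries (100% of values, within 1e-06), but not claimed for Col-0 replicate 3. Of the gene listings, 99.5% overlapped that gene in TAIR10.1. A locus is the sum of the bins naming a gene. The members and lists were chosen with earlier results of these data known. Mutants were compared with limma 3.58.1 (under R 4.3.3, with its trend option) on log2(RPM + 0.5). Features averaging 1 RPM or more over the 6 libraries compared were tested, and p-values were adjusted by Benjamini-Hochberg, with 0.05 as threshold. Recovered reads were tested with edgeR 4.0.16 and DESeq2 1.42.0. Alternatives covered pseudocount, filter, scaling, replicate block, left-out replicates, locus definition and library set. Named are all members, bins of at least 1 RPM, the 2 loci most alike and the 2 highest bins sharing a word. Replicates are called biological in the labels. Same-numbered libraries deviated together (every correlation over 0.1) for heso1-1 and Col-0 (0.127 to 0.422) and for ntp4-1 and Col-0 (0.232 to 0.558), a pairing seen in the data and not stated in the labels, and in no comparison between mutants.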

Additional observations from a re-analysis of the deposited data

How the results depend on the processing

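No alternative gave a call for a member between ntp4-1 and heso1-1 or between urt1-1 and heso1-1 in the fits named here, whereas counts over all bins or loci moved widely, and the cause was not tested. Bins called for ntp4-1 minus heso1-1 numbered 17. They were 0 with a pseudocount of 0.1, 27 with 1, 159 with no filter, 0 among bins averaging 5 RPM or more, 66 in the fit over all 4 groups, 148 with the library set as a term, 0 by edgeR, 185 by DESeq2 and 0 to 295 with a replicate left out. For ntp4-1 minus urt1-1 the 25 bins became 0, 14, 100, 0, 68, 1047, 0, 204 and 0 to 93 in the same order, and 46 after TMM scaling. For urt1-1 minus heso1-1 the 2 bins became 0, 1, 40, 0, 0, 1, 0, 33 and 0 to 24, with 0 after TMM scaling and 1 with equal sums over the listed bins. Loci called for ntp4-1 minus heso1-1, 0 at first, were 5 after TMM scaling, 4 with equal sums, 8 in the fit over all groups, 7 with the library set, 72 by DESeq2 and 0 to 39 with a replicate left out. For ntp4-1 minus urt1-1 the 10 loci became 4 with a pseudocount of 0.1, 2 among loci averaging 5 RPM or more, 16 after TMM scaling, 48 over all groups, 113 with the library set, 5 with bins placed by midpoint, 3 by edgeR, 73 by DESeq2 and 0 to 39 with a replicate left out. For urt1-1 minus heso1-1 the 0 loci became 11 by DESeq2 and 0 to 2 with a replicate left out. TMM scaling moved the split of called bins for ntp4-1 minus heso1-1 from 8 higher and 9 lower to 10 and 4, and equal sums to 11 and 6. Within set B alone the called loci numbered 32 for ntp4-1 minus heso1-1 and 118 for ntp4-1 minus urt1-1, and within set A alone 469 for ntp4-1 minus urt1-1 and 3 for urt1-1 minus heso1-1. In set A ntp4-1 minus heso1-1 has 1 library a group and no test. The alternatives that use the sets were chosen after seeing the data.

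Replicates with the same number correlated at 0.0817 to 0.44 for ntp4-1 and heso1-1, -0.276 to 0.353 for ntp4-1 and urt1-1 and -0.0994 to 0.229 for urt1-1 and heso1-1, so the numbers were not taken as a pairing between mutants. Over all 6 comparisons, 11 of 18 libraries matched their own number best, and every replicate 1 is in set A and every replicate 2 in set B. With the replicate block, called bins numbered 304, 186 and 0 for ntp4-1 minus heso1-1, ntp4-1 minus urt1-1 and urt1-1 minus heso1-1, and called loci 43, 26 and 0. Under the block AT5G44770 passed for ntp4-1 minus urt1-1 (adjusted p = 0.00302), as did its leading bin (0.00337) and that of AT5G34882 (0.00219).

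Directions of AT3G09960 and AT1G28000 rested on single libraries in some comparisons. With a replicate left out, the AT3G09960 locus ranged from -1.39 to 0.24 for ntp4-1 minus heso1-1, from -1.59 to 0.047 for ntp4-1 minus urt1-1 and from -0.37 to 0.57 for urt1-1 minus heso1-1. Its leading bin ranged from -1.18 to 0.47, from -1.48 to 0.17 and from -0.32 to 0.71, and stood at 0.17 by edgeR and 0.20 by DESeq2 for ntp4-1 minus heso1-1. AT1G28000 ranged from -0.29 to 0.35 for urt1-1 minus heso1-1, and stood at -0.19 within set B. Members above Col-0 numbered 5 in heso1-1, 5 in urt1-1 and 3 to 4 in ntp4-1 with a replicate left out. At AT5G44770 the 1 read in each of ntp4-1 replicates 1 and 3 lies under the 3 reads that a count of 0 allows.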
